A study of Homo sapiens with 5 samples.

Results

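The 1-kb windows at the ends of the long arms of human chromosomes 1 to 22 were examined in reduced representation bisulfite sequencing (RRBS) data of human induced pluripotent stem cells (iPSCs). A window was taken as a long-arm-end window when its end lay within 1000000 bases of the largest window end on the same chromosome, a rule that uses position and no methylation value. This gave 6831 windows, 2.45% of the 278477 autosomal windows and 2.37% of the 288391 windows of the whole table. The last measured window is not the telomere itself. On chromosome 5 the furthest RefSeq gene ended 166479 bases beyond it, whereas on chromosome 7 the last window lay 81677 bases beyond the furthest RefSeq gene, so "end" means the end of what was measured.

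Chromosome ends carry the telomere repeat TTAGGG, and the subtelomeric DNA next to it is a mosaic of gene-rich sequence and blocks copied between chromosomes. In human pluripotent cells, subtelomeric CpGs are methylated with the help of the de novo methyltransferases DNMT3A and DNMT3B, and loss of DNMT3B function in the ICF syndrome is known for undermethylated subtelomeres and raised levels of the telomeric RNA TERRA. CpG islands, stretches dense in CpG, are typically unmethylated at the promoters of active genes and are flanked by shores and shelves. Gene bodies are typically methylated.

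RRBS cuts DNA at CCGG with a restriction enzyme, converts unmethylated cytosines with bisulfite and gives the share of CpG calls that stayed methylated, the β-value, here printed in percent. The cells were the iPSC line 201B7, 1 clonal line with the genotype labelled wild type, grown without feeder cells and kept for 48 h in 1 of 5 conditions. These were 0.1% DMSO as the vehicle control, 1 nM etoposide (a topoisomerase II poison), 1 µM propyl gallate (an antioxidant), 1 µM theophylline (a phosphodiesterase inhibitor and adenosine receptor antagonist) and 10 nM 5-aza-dc (decitabine, which traps DNA methyltransferases on DNA). Each condition had 1 library. Differences between conditions therefore have no replicate spread to be judged by, and all 4 chemicals were compared with the same vehicle control. The labels name another DNA extraction kit than the study's methods. The study describes its methylation profiling in iPSCs carrying a transgene, mCherry-MBD-nls, for a fluorescent protein that binds methylated CpGs. Its RRBS methods name only "cells", so the cells measured here may carry this transgene although the label is wild type.

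The long-arm-end windows held between 6052618 (etoposide) and 7307833 (vehicle control) CpG calls per library, 3.19 to 3.24% of all calls, with a median of 707 calls per window for the vehicle control and 580 for 5-aza-dc. The median 95% Wilson interval of a single window was 4.21 percentage points wide for the vehicle control and 4.83 for 5-aza-dc. Several calls come from 1 read, and PCR copies may be among them, so all intervals here cover counting error only. Among the 1173 long-arm-end windows with 1 to 20 unmethylated calls in the vehicle control, 65.2% had an even number, so calls tended to come in pairs and the intervals are likely too narrow.

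The promoters of 7 genes from these segments show what the RRBS windows cover. They run from 250 bases before to 50 bases after the transcription start and are taken from RefSeq on GRCh38.p14, 5′ to 3′ on the gene's strand, with every CpG in capitals. CHAMP1, which encodes a protein that helps attach chromosomes to spindle microtubules, and TBP, the TATA-binding protein, are shown because their windows were almost free of methylation. CACNA1B is a neuronal calcium channel subunit, SYCE1 a protein of the meiotic synaptonemal complex and RTEL1 a helicase that dismantles telomere loops. They are shown because their windows were mostly methylated, with differing CpG numbers. DUX4, the repeat-encoded embryonic transcription factor of 4q35, and CYP2E1, a liver enzyme that oxidizes ethanol, are shown because their windows were still more methylated.

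CHAMP1: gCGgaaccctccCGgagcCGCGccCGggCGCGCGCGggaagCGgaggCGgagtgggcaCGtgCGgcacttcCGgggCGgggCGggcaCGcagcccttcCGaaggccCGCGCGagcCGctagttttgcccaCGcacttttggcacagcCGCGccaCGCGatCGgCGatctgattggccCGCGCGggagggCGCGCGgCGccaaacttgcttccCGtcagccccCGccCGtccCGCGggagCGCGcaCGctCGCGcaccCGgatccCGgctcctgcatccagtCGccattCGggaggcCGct
TBP: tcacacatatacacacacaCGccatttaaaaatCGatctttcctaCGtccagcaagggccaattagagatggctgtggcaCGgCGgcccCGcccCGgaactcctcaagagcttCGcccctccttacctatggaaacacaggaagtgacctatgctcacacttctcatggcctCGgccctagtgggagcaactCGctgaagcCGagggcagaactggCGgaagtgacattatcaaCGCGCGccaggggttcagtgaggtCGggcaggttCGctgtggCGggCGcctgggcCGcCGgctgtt
RTEL1: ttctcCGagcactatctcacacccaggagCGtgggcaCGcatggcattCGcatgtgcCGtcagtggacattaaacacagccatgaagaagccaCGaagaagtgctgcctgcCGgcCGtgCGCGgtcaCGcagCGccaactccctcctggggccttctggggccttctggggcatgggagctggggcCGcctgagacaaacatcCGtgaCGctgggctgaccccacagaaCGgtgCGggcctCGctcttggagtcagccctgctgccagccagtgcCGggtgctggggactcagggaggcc
CACNA1B: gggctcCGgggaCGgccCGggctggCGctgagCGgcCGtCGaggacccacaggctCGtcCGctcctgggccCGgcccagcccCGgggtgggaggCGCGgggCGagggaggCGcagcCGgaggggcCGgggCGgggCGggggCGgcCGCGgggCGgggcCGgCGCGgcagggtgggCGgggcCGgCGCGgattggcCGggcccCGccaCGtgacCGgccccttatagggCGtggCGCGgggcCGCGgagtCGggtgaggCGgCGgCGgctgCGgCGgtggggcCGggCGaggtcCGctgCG
SYCE1: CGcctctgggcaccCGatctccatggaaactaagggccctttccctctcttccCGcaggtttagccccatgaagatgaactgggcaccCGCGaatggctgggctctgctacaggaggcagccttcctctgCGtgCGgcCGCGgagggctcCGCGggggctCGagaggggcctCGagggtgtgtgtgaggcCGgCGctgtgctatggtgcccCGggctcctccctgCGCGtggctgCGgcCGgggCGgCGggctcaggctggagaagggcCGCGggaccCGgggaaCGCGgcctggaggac
DUX4: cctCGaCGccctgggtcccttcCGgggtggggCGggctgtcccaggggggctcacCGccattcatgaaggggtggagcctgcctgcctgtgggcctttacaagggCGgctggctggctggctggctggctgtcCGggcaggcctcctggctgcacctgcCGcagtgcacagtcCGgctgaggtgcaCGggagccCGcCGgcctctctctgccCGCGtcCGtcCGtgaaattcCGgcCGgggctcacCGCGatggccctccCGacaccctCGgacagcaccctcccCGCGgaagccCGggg
CYP2E1: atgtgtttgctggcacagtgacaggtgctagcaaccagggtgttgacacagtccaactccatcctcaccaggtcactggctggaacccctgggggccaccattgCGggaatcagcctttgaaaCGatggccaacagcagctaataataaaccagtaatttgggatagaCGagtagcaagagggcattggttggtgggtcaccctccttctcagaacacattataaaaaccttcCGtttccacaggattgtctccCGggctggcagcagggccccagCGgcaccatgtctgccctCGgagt

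The CHAMP1 promoter (chr13:114314253-114314552, + strand) holds 51 CpGs, and its window had a β-value of 0.504% in the vehicle control. TBP (chr6:170554119-170554418, + strand) holds 21 CpGs, and its window, which is not annotated as an island, had 0.87%. These are the unmethylated pair. CACNA1B (chr9:137877532-137877831, + strand) holds 49 CpGs, nearly as many as CHAMP1, and its window had 70.6%. SYCE1 (chr10:133568242-133568541, - strand) holds 27 CpGs and had 71.9%, and RTEL1 (chr20:63657560-63657859, + strand) holds 19 and had 69.4%. These 3 windows were methylated to similar levels, although of the 3 only CACNA1B lies above the median of 29 CpGs of promoters at the ends. DUX4 (chr4:190173524-190173823, + strand) holds 25 CpGs and had 90.2%, and CYP2E1 (chr10:133527113-133527412, + strand) holds 7 and had 87.7%. Each promoter lies within a single 1-kb window, and the calls come from the whole window and not from these 300 bases alone.

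The 302 RefSeq promoters that lay within a single long-arm-end window, in 265 distinct windows, held a median of 29 CpGs in 300 bases. In the vehicle control 183 of them (60.6%) lay in windows under 10% methylation and 86 (28.5%) in windows at 70% or more. Of the 11923 promoters in the other autosomal windows, 75.0% lay under 10% and 15.2% at 70% or more, with a median of 25 CpGs. CpG number ordered the promoters at the ends, with mean β-values of 78.3% for the 41 promoters with under 10 CpGs, 61.8% for the 59 with 10 to 19, 20.6% for the 55 with 20 to 29 and 7.80% for the 147 with 30 or more. The same classes elsewhere had means of 64.8%, 24.1%, 7.25% and 4.45%. The difference was widest for promoters with 10 to 19 CpGs, of which 27.1% lay under 10% at the ends and 65.5% elsewhere. The letters TTAGGG, searched on both strands, were found in 5.30% of the promoters at the ends, 7.78% of those in other autosomal windows and 9.05% of all 35116 RefSeq promoters of the same length. CCGG, a palindrome and the RRBS cutting site, was found in 90.4% of the promoters at the ends, 90.0025% of those in other autosomal windows and 63.1% of all promoters. The promoters at the ends and in other autosomal windows lie in windows that RRBS measured by cutting at CCGG. Their CCGG shares therefore cannot be read against that of all promoters.

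Over all long-arm-end windows the mean β-value was 79.5% (95% counting interval 79.4 to 79.5%) in the vehicle control, close to the 79.3% of the other 271646 autosomal windows, a difference of 0.137 percentage points (0.0928 to 0.182). With all calls pooled, so that deep windows weigh more, the difference was 4.49 points, so the near equality depended on the weighting. It also joined unlike parts. The ends were denser in measured windows, with 310.5 per Mb against 95.3 in the rest of the autosomes and a higher density on 19 of 22 chromosomes. They also held more CpG islands, 31.2% of windows against 16.9%, more shores, 25.2% against 10.2%, and fewer windows away from islands, 29.8% against 66.1%. Within the same annotation the CpG-island windows at the ends were much more methylated than those elsewhere.

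The 2132 CpG-island windows at the long-arm ends had a mean β-value of 62.6% (62.5 to 62.7%) in the vehicle control, whereas the 46008 elsewhere on the autosomes had 40.5%, a difference of 22.1 points (22.02 to 22.14). Only 23.2% of the island windows at the ends were under 10% methylation, against 48.7% elsewhere, and 62.8% were at 70% or more, against 38.9%. Counted as islands, 170 of 1190 (14.3%) averaged under 10% at the ends and 10655 of 26968 (39.5%) elsewhere. Shores differed by 4.38 points, with 86.3% at the ends and 81.9% elsewhere. Shelves, with 87.7% and 86.8%, and windows away from islands, with 87.6% and 88.1%, differed by less than 1 point. The difference for island windows was between 21.8 points after 5-aza-dc and 22.4 points after etoposide in the 4 chemical libraries. These libraries share 1 cell line and are not replicates of the comparison.

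The difference was seen in each genomic section of the islands. Promoter islands (504 windows at the ends) averaged 30.7% against 18.7% elsewhere, and 56.5% of them were under 10% against 72.4%. Intergenic islands (642 windows) averaged 79.3% against 65.4%. Islands within gene bodies (870 windows) averaged 67.9% against 41.2%, and those of them at intron-exon boundaries (491 windows) averaged 62.6% against 32.2%. Promoter islands made up 23.6% of the island windows at the ends and 33.1% elsewhere. The median number of calls per island window was 1301.5 at the ends and 1396 elsewhere.

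High island methylation was not particular to long arms. The 4928 windows in the first 1000000 bases of the 17 chromosomes with a measured short arm had a mean of 79.4% over all windows and 64.0% over their 1645 island windows, 1.37 points above the long-arm ends (95% counting interval of long minus short arm -1.47 to -1.28). Promoter islands averaged 35.1% and intergenic islands 79.0% at the short-arm ends. The other autosomal windows above include these short-arm ends.

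The island level also did not peak at the very end. In the last 100 kb (distances under 0.1 Mb), the 118 island windows averaged 50.04%, and 37.3% of them were under 10%. The mean was 51.9% between 0.1 and 0.25 Mb, 63.4% between 0.25 and 0.5 Mb and 65.4% between 0.5 and 1 Mb. The mix of islands changed as well, with promoter islands 45 of 118 in the last 0.1 Mb and 238 of 1204 between 0.5 and 1 Mb. Islands outside promoters averaged 64.5, 66.8, 73.2 and 73.7% over these bins from the end inward, and promoter islands 26.6, 20.7, 34.5 and 32.1%. Outside the segments studied the mean over all island windows stayed at 63.4% between 1 and 2 Mb and 62.9% between 2 and 3 Mb. It then was 52.3% between 3 and 5 Mb, 42.5% between 5 and 10 Mb and 34.97% between 10 and 20 Mb. Windows away from islands were between 85.1% (last 0.1 Mb) and 89.8% (0.25 to 0.5 Mb) throughout. The boundary of 1000000 bases thus marked no step in island methylation.

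The 22 ends differed among themselves. They held between 62 windows on chromosome 1 and 531 on chromosome 20, with a median of 321.5. Mean β-values over all windows in the vehicle control ran from 68.7% on chromosome 19 to 83.5% on chromosome 13, with a median of 80.7%. The end was above the rest of its own chromosome on 13 chromosomes and below it on 9. For island windows the end was higher on 21 of 22 chromosomes in each of the 5 libraries, with a median difference of 19.5 points in the vehicle control. The difference was 37.9 points on chromosome 13 (129 island windows, 76.7% against 38.8%) and 1.86 points on chromosome 1 (16 island windows). The 55.5 points of chromosome 14, whose long arm ends in the immunoglobulin heavy chain locus, rest on 9 island windows.

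Chromosome 19 was the exception, with 42.2% over 105 island windows at the end and 53.1% over the rest, 10.9 points lower at the end. Its long arm ends in a cluster of zinc finger genes, which encode sequence-specific repressors, and 158 of its 284 end windows are assigned to ZNF, ZSCAN or ZFP genes. Promoter islands made up 45.7% of its island windows at the end and 25.9% elsewhere on the chromosome. Both kinds of island were lower at the end, promoter islands with 22.5% against 28.0% and other islands with 58.8% against 61.9%. Promoter islands were lower at the end on 6 chromosomes (3, 5, 11, 16, 19 and 22) and higher on 16 in the vehicle control. The part of the promoter share in the chromosome 19 value was not tested further.

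The last measured window of each chromosome was methylated at 70% or more in the vehicle control on 19 of 22 chromosomes, with a median of 93.4%, and 13 of the 22 windows are CpG islands. The exceptions were chromosome 21, with 1.4% in an exonic island of ENSG00000289511, chromosome 6, with 2.6% in a promoter window of ENSG00000287411, and chromosome 3, with 36.4% in an island of FAM157A. The window of chromosome 21 stayed between 1.2% and 3.8% in the chemical libraries. The window of chromosome 6 was between 1.4% and 2.0% after etoposide, propyl gallate and theophylline and at 7.9% after 5-aza-dc. The libraries were also close to each other at the pseudogene RPL23AP97 on chromosome 13 (94.98 to 97.0%) and at DDX11L9 on chromosome 15 (94.5 to 94.8%). LINC01881 on chromosome 2 had 95.7% in the vehicle control, 96.4 to 99.0% after etoposide, propyl gallate and theophylline, and 77.8% after 5-aza-dc. Many of these genes (RPL23AP copies, FAM157A and FAM157B, DDX11L9) belong to families with near-identical copies at several chromosome ends, so their reads cannot be assigned to 1 end with certainty.

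The chemical libraries differed little from the vehicle control in the mean. The mean β-value of the long-arm-end windows was 80.0% with etoposide, 80.1% with propyl gallate, 80.5% with theophylline and 78.2% with 5-aza-dc. The differences from the vehicle control were 0.55 (0.49 to 0.62) for etoposide, 0.59 (0.53 to 0.66) for propyl gallate, 0.98 (0.92 to 1.04) for theophylline and -1.27 (-1.33 to -1.20) for 5-aza-dc, in points with 95% counting intervals. The other autosomal windows had 0.52, 0.57, 0.98 and -1.03 points. The ends minus the rest came to 0.04 points (-0.03 to 0.10) for etoposide, 0.03 (-0.03 to 0.09) for propyl gallate, 0.00 (-0.06 to 0.07) for theophylline and -0.24 (-0.30 to -0.17) for 5-aza-dc. The difference from the vehicle control was thus more negative at the ends after 5-aza-dc by more than counting error, while the intervals of the other 3 included 0. The 5-aza-dc value was not particular to the long-arm ends. Short-arm-end windows differed by -1.24 points after 5-aza-dc, and long minus short arm came to -0.03 (-0.13 to 0.07). Inward of the long-arm-end windows it was -1.41 points at 1 to 2 Mb, -1.20 at 2 to 3 Mb and -1.28 at 3 to 5 Mb. The 5-aza-dc levels themselves were 78.2% at the ends and 78.3% elsewhere. With all calls pooled, the ends differed from the vehicle control by 0.128 points after etoposide and -2.98 after 5-aza-dc, and the other autosomal windows by 0.526 and -2.84, so that the ends minus the rest came to -0.398 and -0.136 points. Whether such differences exceed the spread between cultures could not be examined with 1 library per condition.

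By annotation, island windows at the ends were 0.46 points above the vehicle control after etoposide and 0.16 elsewhere (0.30 points, 0.21 to 0.39 for the ends minus the rest). The values were 0.45 and 0.15 points after propyl gallate (0.29 points, 0.20 to 0.38) and 0.61 and 0.43 after theophylline (0.19 points, 0.10 to 0.28). After 5-aza-dc they were -1.29 and -0.97 (-0.32 points, -0.41 to -0.22). Over all island windows, those at the ends therefore differed more from the vehicle control than those elsewhere in all 4 libraries. Promoter islands alone did not after etoposide (0.02 points, 0.06 elsewhere) or theophylline (-0.07, 0.24 elsewhere). Their ends minus the rest were 0.08 (-0.06 to 0.23) after propyl gallate and -0.48 (-0.62 to -0.33) after 5-aza-dc. Islands averaging 70% or more over the 5 libraries gave 0.20, 0.17, 0.04 (-0.08 to 0.16) and -0.21 points for etoposide, propyl gallate, theophylline and 5-aza-dc. The larger difference over all end islands was not particular to long arms. Island windows at the short-arm ends differed by 0.37 points with etoposide, 0.38 with propyl gallate, 0.83 with theophylline and -1.27 with 5-aza-dc, and in that order long minus short arm came to 0.09 (-0.05 to 0.22), 0.07 (-0.06 to 0.20), -0.22 (-0.35 to -0.09) and -0.02 (-0.16 to 0.12). After theophylline the short-arm islands thus differed more. Windows of like level were also compared over all annotations together. The 543 end windows with a mean under 10% over the 5 libraries were at -0.45 points from the vehicle control after 5-aza-dc and those elsewhere at -0.36 (-0.09 points, -0.17 to -0.0044). The 175 end windows of 10 to 30% were at -2.79 and those elsewhere at -2.60 (-0.19 points, -0.57 to 0.19). The 362 end windows with a mean of 30 to 70% over the 5 libraries were -2.80 points from the vehicle control after 5-aza-dc and those elsewhere -2.995 (0.20 points, -0.27 to 0.67). The 1913 end windows of 70 to 90% were at -1.79 and those elsewhere at -1.71 (-0.08 points, -0.24 to 0.08). The 3838 end windows of 90% or more were at -0.90 and those elsewhere at -0.69 (-0.22 points, -0.30 to -0.14). The interval thus excluded 0 in the lowest and the highest of the 5 classes. For the other chemicals it excluded 0 at 10 to 30% after etoposide (0.74 points, 0.33 to 1.14) and propyl gallate (0.42, 0.03 to 0.82), at 30 to 70% after propyl gallate (0.57, 0.12 to 1.02) and at 90% or more after theophylline (-0.13, -0.20 to -0.05). By distance, the last 0.1 Mb (377 windows) differed by 1.42 points after etoposide (1.096 to 1.743), 1.21 after propyl gallate, 1.38 with theophylline and -0.47 with 5-aza-dc (-0.81 to -0.14), whereas the windows from 0.5 to 1 Mb differed by 0.44, 0.58, 0.97 and -1.42 points. The difference from the vehicle control was thus higher in the outermost windows than further in after all 4 chemicals. All 4 differences share the same vehicle control values, so they are not separate observations. The 377 windows include those of PRDM7, FAM157A and CTC-338M12.4, named below for large rises. The 5-aza-dc library was the lowest of the 5 in 39.95% of the long-arm-end windows and in 35.2% of the other autosomal windows.

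Of the 22 chromosome ends, the mean was above the vehicle control on 22 after etoposide, 21 after propyl gallate (all but chromosome 4, with -0.16 points) and 21 after theophylline (all but chromosome 14, with -0.57 points), and below it on 22 after 5-aza-dc. The counting interval excluded 0 on 16, 17 and 20 ends for the first 3 chemicals and on 22 for 5-aza-dc. In the rest of the genome all 22 chromosomes moved the same way as well. The ends after 5-aza-dc were between -2.13 points on chromosome 1 (62 windows) and -0.59 on chromosomes 18 and 19, and the difference was more negative at the end than over the rest of the chromosome on 15 of 22.

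**Figure D1:**
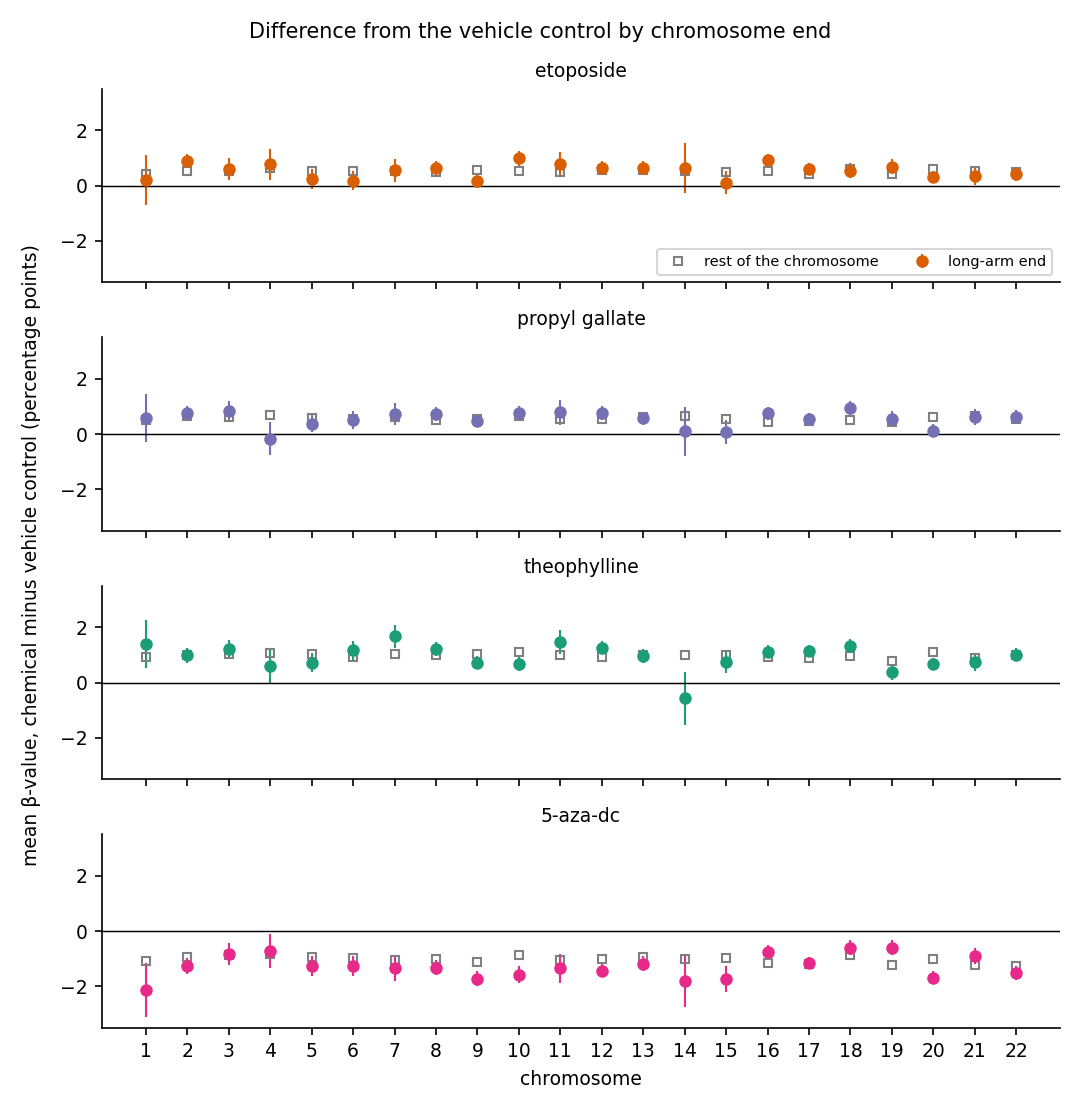
Mean β-value of the long-arm-end windows of each chromosome after each chemical minus the vehicle control (percentage points, filled circles with 95% counting intervals), with the same difference over the rest of the chromosome (open squares). Nearly all ends lie above 0 after etoposide, propyl gallate and theophylline, and all 22 lie below 0 after 5-aza-dc.

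Single windows were compared by Fisher's exact test, two-sided, on methylated and unmethylated calls with Benjamini-Hochberg adjustment over all 288391 windows, which compares 2 libraries and not 2 conditions. With the adjusted p below 0.01 and 25 or more points between the libraries, 8 long-arm-end windows were higher after etoposide (0.117%, with 0.100% of all windows called) and 2 lower (0.0293%, with 0.0926%). After propyl gallate 5 were higher (0.0732%, with 0.0933% of all windows) and 3 lower (0.0439%, with 0.0832%). After theophylline 8 were higher (0.117%, with 0.104% of all windows) and 6 lower (0.0878%, with 0.0704%). After 5-aza-dc 5 were higher (0.0732%, with 0.0746% of all windows) and 13 lower (0.190%, with 0.235%). With calls divided by 2, 5 were lower after 5-aza-dc and the other counts were between 0 and 3. This alternative was added after seeing the data because calls tended to come in pairs. Its shares over all windows are not given, so its counts say nothing on the ends against other windows.

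When 10 points were enough, 101 of the windows stood higher with etoposide and 70 lower (1.48% and 1.02%, with 1.36% and 0.957% of all windows). The counts were 86 and 57 after propyl gallate (1.26% and 0.834%, with 1.34% and 0.879%) and 98 and 48 after theophylline (1.43% and 0.703%, with 1.59% and 0.678%). After 5-aza-dc 62 were higher and 201 lower (0.908% and 2.94%, with 0.877% and 2.76%). The shares called at the ends were thus near those over all windows for all 4 chemicals.

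The largest single difference was at a CpG island in an intron of PRDM7 (ENSG00000126856), a meiotic histone methyltransferase gene and close copy of PRDM9, at chr16:90082001-90083000 (GRCh38), 89 kb from the last window. This window had a β-value of 1.6% in the vehicle control (2 of 125 calls, Wilson interval 0.4 to 5.6%), 38.8% with etoposide (54 of 140), 26.3% with propyl gallate (18 of 70), 41.1% with theophylline (34 of 82) and 85.6% with 5-aza-dc (93 of 109). The vehicle control was thus the lowest of the 5 and 5-aza-dc the highest, with adjusted p between 2.8e-41 (5-aza-dc) and 1.2e-05 (propyl gallate) by Fisher's exact test. The window had 70 to 140 calls per library, beside the median of 707 in the vehicle control, and the gene has a close copy elsewhere in the genome. Here and below the β-values are as deposited, from scaled and rounded calls, and the calls are those before scaling, so their ratio can differ slightly from the β-value. In the island of FAM157A at the end of chromosome 3 (chr3:198157001-198158000), the value was 36.4% in the vehicle control, 75.9% with etoposide, 44.4% with propyl gallate, 41.8% with theophylline and 55.9% with 5-aza-dc. Here etoposide was the highest library (adjusted p = 1.4e-14, Fisher's exact test).

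At the island of CTC-338M12.4 (chr5:181272001-181273000, intron-exon boundary), the 5 libraries fell into a low pair, vehicle control with 56.7% and propyl gallate with 55.3%, and a high group with 89.0% after etoposide, 87.3% after theophylline and 86.7% after 5-aza-dc. A shelf window of LINC02012 (chr3:197502001-197503000) grouped the libraries otherwise, with 65.6% in the vehicle control and 68.5% after theophylline against 94.5% after etoposide, 94.4% after propyl gallate and 87.5% after 5-aza-dc. An intron-exon boundary window of ESYT2, which encodes a tether between endoplasmic reticulum and plasma membrane, was at 59.4% in the vehicle control and 91.4% after propyl gallate, with 84.8% for theophylline, 69.2% for etoposide and 66.7% for 5-aza-dc. The vehicle control had 32 calls there.

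Among the 2 windows named for each chemical as the largest falls, the library of that chemical was the lowest of the 5. After etoposide a shore window of FTCD-AS1 on chromosome 21 was at 45.7% (14 of 30 calls) against 80.5% in the vehicle control, and an intron window of FYTTD1, an mRNA export adaptor, on chromosome 3 was at 54.8% against 81.5%. After propyl gallate the intergenic island of GAS6-AS1 on chromosome 13 was at 40.5% against 69.2%, with 94.8% after theophylline, and an intron window of KCNG2, a potassium channel subunit, on chromosome 18 was at 74.3%, where all 42 calls of the vehicle control were methylated. After theophylline an island of ATG4B, the protease that processes ATG8 proteins in autophagy, on chromosome 2 was at 41.7% (56 of 135 calls) with 88.2% in the vehicle control and all calls methylated in the other 3 libraries (22, 38 and 60 calls). The promoter island of the pseudogene RARRES2P2 on chromosome 10 was at 22.9% after theophylline and between 61.9% and 77.2% in the other libraries. After 5-aza-dc a shelf window of ENSG00000288715 on chromosome 16 was at 42.9% against 90.2%, with 72.0% after etoposide, 75.0% after theophylline and 94.7% after propyl gallate, and a window of B3GAT1-DT on chromosome 11 at 23.8% against 65.1%, with 60.0 to 73.5% after the other chemicals. These windows, like the rises above, were chosen by an adjusted p below 0.01 (Fisher's exact test). Both libraries compared also had to have at least 30 calls. Passing the test is thus no further support for them.

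Genes of these segments were grouped by function, taking the long-arm-end windows that overlap a gene or the 1500 bases upstream of it. Of 103 genes listed, 96 had such windows and 49 a RefSeq promoter within 1 of them. FRG2 and DUX4L10 had no position in the table, and SPATC1, FASN, IGHA2 and the olfactory receptor genes OR4F13P and OR4F4 had no long-arm-end window. Values are means over a gene's windows, and the differences carry 95% counting intervals.

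Among 6 telomere and chromatin genes (125 windows), the mean in the vehicle control ran from 42.4% for TRIM28, the corepressor of zinc finger repressors, with 3 windows, to 89.5% for EHMT1, a histone H3 lysine 9 methyltransferase, with 76. CHAMP1 had 8 of 9 windows at 70% or more and its promoter window at 0.5%, and PRMT2, an arginine methyltransferase, had 8 of 9 and 1.2%. Of the 4 genes with a promoter value, CHAMP1, PRMT2 and TBP were thus low there and RTEL1 was not. TBP had the largest differences of the group in 3 libraries, with 59.5% in the vehicle control, 63.7% after etoposide (4.14 points, 1.70 to 6.58), 63.6% after theophylline (4.11 points) and 62.6% after 5-aza-dc (3.08 points). EHMT1 had it after propyl gallate, with 1.48 points. The promoter window of RTEL1 was at 69.4% in the vehicle control, 71.4% with etoposide, 68.6% with propyl gallate, 65.2% with theophylline and 59.0% with 5-aza-dc (adjusted p = 3.3e-08, Fisher's exact test), the lowest of the 5. Over its 25 windows RTEL1 differed by -1.69 points after 5-aza-dc. Of the 125 windows, 0 were higher and 1 lower by at least 10 points after etoposide (with 1.36% and 0.957% of all windows called), 1 and 0 after propyl gallate (1.34% and 0.879%), 4 and 3 with theophylline (1.59% and 0.678%) and 2 and 2 with 5-aza-dc (0.877% and 2.76%).

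The repeat region of 4q35 and 10q26 had 8 windows in 3 genes. DUX4L9, a DUX4 pseudogene, had 3.7% over 3 island windows in the vehicle control and between 2.4% and 3.8% in the chemical libraries, whereas DUX4 had 91.6% over 2. After theophylline DUX4 was at 81.4%, a difference of -10.1 points (-15.9 to -4.35), and it was at 88.2% after 5-aza-dc (-3.36 points, -7.33 to 0.61). No window of these genes passed the test at 10 points, where 0.678 to 2.76% of all windows were called, by chemical and direction. With 8 windows this count says nothing on these genes. The DUX4 promoter window had 122 calls in the vehicle control, and DUX4 lies in a repeat with near-identical copies on both chromosomes. FRG1, next to it, had its promoter window at 0.8% and the largest differences after etoposide (1.501 points) and propyl gallate (1.72 points).

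Of the pluripotency genes, UTF1, a chromatin factor of embryonic stem cells, had 22.9% over 3 island windows and VENTX, a homeobox factor, 42.2% over 6. UTF1 differed by -2.01 points after theophylline (-3.46 to -0.56), and VENTX by 1.59 points after theophylline (-0.22 to 3.40) and -1.57 after 5-aza-dc (-3.47 to 0.33). The promoter window of VENTX was at 5.03% in the vehicle control, 2.39% with etoposide, 3.46% with propyl gallate, 4.30% with theophylline and 2.17% with 5-aza-dc (adjusted p = 2.8e-11, Fisher's exact test), highest in the vehicle control. UTF1 also had the largest values after etoposide (0.57 points) and propyl gallate (-1.45 points). SYCE1, the germline gene, has another RefSeq promoter here, in a window at 92.0%. It had 65.4% over 3 island windows, 62.4% with etoposide, 67.3% with propyl gallate, 70.1% with theophylline and 67.9% with 5-aza-dc. Its theophylline value was 4.70 points higher (3.12 to 6.28), with 1 of the 3 windows called higher at 10 points (1.59% of all windows).

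The 7 developmental signalling genes (242 windows) ran from 23.3% for the Notch ligand DLL1, with 8 of 11 windows under 10%, to 84.4% for the zinc finger factor MYT1, with 57 of 63 at 70% or more. NFATC1, a calcineurin-regulated transcription factor, had 43 island windows among 87, of which 5 windows in all were under 10%, and a promoter window at 1.7%. GAS6, a ligand of TAM receptors, had its promoter window at 0.2% and a mean of 81.6% over 33 windows. SOX18, an endothelial transcription factor, had the largest values after etoposide (-2.22 points), propyl gallate (-2.91) and 5-aza-dc (6.67), but each interval included 0, and MYT1 had the largest after theophylline (1.86 points, 1.18 to 2.53). After 5-aza-dc 6 of 7 genes were below the vehicle control, where the mean over the other autosomal windows differed by -1.03 points. Among them were JAM3, a junctional adhesion molecule (-4.16 points, -6.62 to -1.69), and FLT4, the receptor of VEGF-C (-2.03 points). Of the 242 windows, 2 were higher and 4 lower by at least 10 points after etoposide (1.36% and 0.957% of all windows), 1 and 1 after propyl gallate (1.34% and 0.879%), 4 and 3 with theophylline (1.59% and 0.678%) and 2 and 5 with 5-aza-dc (0.877% and 2.76%).

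The 7 neural genes (270 windows) ran from 46.1% for OPRL1, the nociceptin receptor, to 87.5% for CACNA1B. The CACNA1B promoter window was at 70.6% in the vehicle control, 73.1% with etoposide, 74.0% with propyl gallate, 77.4% with theophylline and 69.9% with 5-aza-dc. MAPK8IP2, a JNK scaffold, had a partly methylated promoter window with 21.2% in the vehicle control and 16.9 to 22.7% in the others, and the largest differences of the group after propyl gallate (-2.64 points) and 5-aza-dc (-2.92 points). VIPR2, a receptor of vasoactive intestinal peptide, had it after etoposide (2.08 points) and OPRL1 after theophylline (2.92 points). SHANK3, a postsynaptic scaffold, had 5 of 31 windows under 10% and 17 at 70% or more, with means of 62.9% in the vehicle control and of 61.5% after 5-aza-dc, and its RefSeq promoter window, a shore, was at 79.4% and 70.9% (adjusted p = 6.8e-07, Fisher's exact test). Of the 270 windows, 6 were higher and 5 lower by at least 10 points after etoposide (1.36% and 0.957% of all windows), 8 and 4 after propyl gallate (1.34% and 0.879%), 6 and 2 with theophylline (1.59% and 0.678%) and 5 and 11 with 5-aza-dc (0.877% and 2.76%).

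Metabolic genes ran from 51.6% for CHKB, choline kinase beta, to 81.7% for D2HGDH, D-2-hydroxyglutarate dehydrogenase, and ARSA, the lysosomal arylsulfatase A, had the largest differences after propyl gallate (1.79 points), theophylline (1.28) and 5-aza-dc (-3.40 points, -4.66 to -2.14). D2HGDH had 0.54 points after etoposide. The adjacent collagen VI genes had 83.2% for COL6A1 and 81.9% for COL6A2, with -2.02 points for COL6A1 after 5-aza-dc and 0.93, 1.47 and 1.49 points for COL6A2 after etoposide, propyl gallate and theophylline. Of the immune genes, PDCD1, which encodes the T-cell receptor PD-1, had all 11 windows at 70% or more and a mean of 90.3%. TNFRSF6B, a decoy receptor, had 67.7% over 3 windows, with -1.11 points after etoposide, 1.12 after propyl gallate, -1.92 with theophylline and -2.42 with 5-aza-dc.

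The 62 zinc finger genes and their divergent or antisense transcripts (345 windows) had gene means from 0.82% for ZNF776, with 2 windows, to 91.1% for ZNF268, with 6. Of the 30 with a RefSeq promoter within 1 long-arm-end window, 26 had that window under 5%, and some of them share a window. The remaining 4 were ZNF132 and its divergent transcript with 57.2%, ZSCAN18 with 47.3% and ZNF135 with 22.4%, counting 1 RefSeq promoter a gene. ZSCAN18 has another RefSeq promoter in these segments, whose window was at 0.90%. The gene means were above the vehicle control for 40 genes after etoposide, 46 after propyl gallate and 40 after theophylline, and below it for 41 after 5-aza-dc. The mean over the other autosomal windows moved the same way, by 0.52, 0.57, 0.98 and -1.03 points in that order. No share over all genes is given, so whether the counts are particular to zinc finger genes cannot be told. Some of the 62 also share windows. The largest difference was in ZNF256, whose 3 windows averaged 58.3% in the vehicle control, 57.3% with etoposide, 54.1% with propyl gallate, 36.8% with theophylline and 56.1% with 5-aza-dc. Theophylline was thus 21.5 points lower than the vehicle control. Of these windows 1 was called at 10 points (1.59% of all windows called higher and 0.678% lower). The promoter window was at 1.03% in the vehicle control and 0.830% with theophylline, so the difference came from the remaining windows. None of them was among the 2 largest theophylline falls with adjusted p below 0.01 (Fisher's exact test) and 30 or more calls, -46.6 and -39.0 points. The calls in the remaining windows are not given here, and the cause of the difference was not tested. ZNF497 was 9.34 points higher after etoposide (4.95 to 13.7), ZNF530, with 1 window, 5.57 points higher after propyl gallate whereas the readthrough gene ZNF511-PRAP1 had a mean of 57.0% in the vehicle control and one of 49.4% after 5-aza-dc (-7.62 points). ZSCAN4, a gene of early embryonic cells known for its part in telomere maintenance, had a single window with 85.0% in the vehicle control, 89.2% with etoposide, 83.6% with propyl gallate, 94.4% with theophylline and 82.1% with 5-aza-dc. Zinc finger genes of this cluster have similar sequences, and their windows are uncertain where reads could be shared.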

How the data were processed

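DNA methylation was measured by RRBS in 5 iPSC libraries, 1 per condition. The authors trimmed and aligned the reads, added up the CpG calls of each 1000-base window, scaled the coverage and kept windows present in all libraries. Their processing notes name Trim Galore 0.5.0, Bismark 0.20.0, SAMtools 1.9, methylKit 1.10.0 and the build hg38. Coordinates are given as deposited. For the vehicle control the deposited values are counts of calls. For the other 4 libraries they are a score: the authors scaled the calls, by factors found here to be 1.21 for 5-aza-dc, 1.18 for etoposide, 1.15 for theophylline and 1.09 for propyl gallate, and rounded them. The deposited β-values, a fraction per window, were used for means. The calls before scaling, recovered from these factors, were used for tests and intervals, and gave back the deposited coverage in 99.86% or more of the windows when rescaled. The number of per-sample columns not used was 0.

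Means over windows carry 95% counting intervals from the binomial variance of the calls, and single windows carry Wilson intervals. Fisher's exact test, adjusted by the Benjamini-Hochberg method over all windows, was planned on deposited counts and was run on the recovered calls, with the deposited calls as an alternative. It was tested on simulated data with independent calls, so this check does not cover calls that come in pairs. No test between conditions was made. The windows, gene lists and tests were chosen with earlier results of these data known. The windows named are, for each chemical, the 2 largest rises and 2 largest falls at adjusted p below 0.01 where both libraries had 30 or more calls, the last window of each chromosome, and the windows of the listed genes. The 7 promoters printed and the comparison of island windows were chosen after values were seen. Promoters matched to windows were those whose 300 RefSeq bases lay within 1 window. Analyses used Python 3.11.15, numpy 2.4.6, pandas 2.3.3, numba 0.67.0 and statsmodels 0.14.6.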

Additional observations from a re-analysis of the deposited data

How the results depend on the processing

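The differences are given here in percentage points of mean β-value. The near-zero difference between all long-arm-end and other autosomal windows (0.137) depended on the processing. It was 4.49 with all calls pooled, 0.231 with at least 30 calls in all libraries and 1.04 within 2000000 bases of the end, and it turned to -1.04 within 500000 bases, -0.120 outside CpG islands and -0.344 with chromosomes weighted equally. The difference of island windows (22.1) kept its direction, with 21.6 pooled, 17.7 within 500000 bases, 23.5 within 2000000 bases and 20.4 with chromosomes weighted equally. With all calls pooled the chemicals differed from the vehicle control by -2.98 (5-aza-dc), 0.128 (etoposide), 0.524 (propyl gallate) and 1.32 (theophylline). Within 500000 bases etoposide gave 0.708 and 5-aza-dc -1.06, within 2000000 bases 5-aza-dc gave -1.34, and outside islands propyl gallate gave 0.661 and theophylline 1.14. No chemical changed direction under any alternative run.

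Windows called higher and lower by at least 10 points instead of 25 numbered 62 and 201 (5-aza-dc), 101 and 70 (etoposide), 86 and 57 (propyl gallate) and 98 and 48 (theophylline). At an adjusted p under 0.05, 4 instead of 2 were lower after etoposide and 9 instead of 5 higher after 5-aza-dc. With at least 30 calls in both libraries, 3 instead of 5 were higher after propyl gallate and 2 instead of 5 after 5-aza-dc. With calls divided by 2, chosen after seeing the data, the counts were 2 and 5, 3 and 0, 0 and 0, and 2 and 1 in that order. Calls as deposited changed no count by over 1.5 times. Except at 10 points, the shares over all windows are not given for these settings. The counts therefore show how the calling depends on the setting and not how the ends compare with other windows. The causes were not tested. With 1 library per condition, differences between conditions cannot be told apart from differences between cultures or libraries. No paired analysis was possible because each group has 1 sample.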
